A study of Saccharomyces cerevisiae BY4741 with 2 samples.

Results

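The open reading frames (ORFs) described here are those that the deposited expression lists carry under a systematic name alone, such as YJL107C, and that were well expressed. An ORF was included when its name had the plain systematic form with no suffix, stood on exactly 1 row, was above 0 in both strains and averaged at least 50 FPKM over the strains. The ORFs were thus selected on the measured values of both strains. FPKM is a level scaled to transcript length and to the number of fragments mapped in the library; the file headers name no unit, and FPKM is inferred from the submitters' use of Cuffdiff, which reports it. The rule gave 127 ORFs out of 2211 genes compared in all, which were those on 1 row that exceeded 0 in each strain and averaged 1 FPKM or more. Of 483 systematic names of this form in the lists, 67 stood on several rows. Of the 416 on 1 row, 14 were listed at 0 for each strain, 9 were at 0 in wild type alone and 7 in the deletion alone, with no value above 1.56 FPKM among those at 0 in a single strain. A further 259 were below the mean limit.

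Yeast ORFs receive a systematic name from the genome sequence, which encodes the chromosome, the arm, the order along it and the strand. They gain a standard symbol later, once a function or a mutant phenotype has been described. A list that shows the systematic name alone therefore collects genes that had no standard symbol in the annotation used to make it. Dbp2 belongs to the DEAD-box helicases, unwinds RNA and is known in yeast for its association with transcribed genes and for the assembly of messenger RNA with its binding proteins.

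RNA was sequenced from Saccharomyces cerevisiae BY4741, a laboratory strain. The wild-type strain was MATa with the alleles his3Δ1, leu2Δ0, met15Δ0 and ura3Δ0. The deletion strain, written dbp2Δ below, was also MATa and had DBP2 replaced by KanMx; its other alleles were leu2Δ0 and ura3Δ0, shared with wild type, his3Δ0, TRP1, met- and, in this strain alone, lysΔ. The differences at these other loci cannot be told apart from the loss of DBP2, and in bulk RNA fewer cells that express a gene and less RNA per cell cannot be told apart either. Both were cultured at 30 °C in YP medium containing 2% glucose and harvested during mid-log growth. The labels list 2 replicates per strain, but 1 sample and 1 value per strain were analysed, so the differences have no replicate check and no test was possible. The deposited values summed to 5.21e+06 FPKM in wild type against 1.72e+06 FPKM in dbp2Δ cells, of which 79.3% and 56.9% stood on the top 10 rows. DBP2 stood on 3 rows, of which the highest was 1539.7 FPKM in wild type against 2.52 FPKM in dbp2Δ cells. The MATa receptor gene STE2 was 433 FPKM in both strains, and the alpha-cell receptor gene STE3 was 2.08 FPKM and 2.56 FPKM. BAR1, another gene of MATa cells, was 141 FPKM and 32.2 FPKM. Read counts were not given, so the depth is unknown.

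The name of the group held only in part. The RefSeq annotation of assembly R64 contains 124 of the 127 ORFs and now gives a standard symbol to 59 of them, among them MPC2 (YHR162W), a subunit of the mitochondrial pyruvate carrier, and SFM1 (YOR021C), a methyltransferase that acts on a ribosomal protein. The notes of 58 ORFs still call the product a hypothetical protein or a protein of unknown function. YJR087W, YNL179C and YNR025C are not in that table and are named without annotation. YJR087W was 101 FPKM in wild type against 105 FPKM in dbp2Δ cells, and YNR025C was 63.6 FPKM and 47.6 FPKM. The matched ORFs lie on 13 chromosomes, with most on XIV (24), X (20) and VIII (15). Coding lengths ran from 261 to 4038 bases with a median of 1051.5 bases, and 120 of the ORFs have a single coding exon.

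A pair of hydrophilins and a pair of reductases or dehydrogenases were among the ORFs with the highest ratios of dbp2Δ cells over wild type, and a pair of phosphatases and a transfer RNA synthetase among those with the lowest. ORFs with vacuole or membrane words in their notes stood at both ends. At the higher end these were YHL008C, YHR138C and ROQ1, and only the note of YHL008C places its product at the vacuole. Of the 127 ORFs, 10 were at least 2-fold higher in dbp2Δ cells on the log2 scale with a pseudocount of 1 FPKM, against 8.86% of all genes compared. In the other direction 11 were at least 2-fold lower, against 10.9% of all genes compared. As shares of the ORFs these counts were 7.87% and 8.66%. The remaining 106 lay in between. The rule used the mean of the same pair of values, so these shares describe the ORFs and support nothing beyond them.

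Stretches of 100 bases from the upstream regions are shown for ORFs at least 2-fold apart, since the DNA before a gene is where factors that change its transcription bind. The window searched ran from 400 to 101 bases before the start codon, 300 bases on the strand of the gene, read from RefSeq R64. The letters AGGGG, the core of the stress response element bound by Msn2 and Msn4, were searched on both strands. They were present in 4 of the 10 ORFs with higher values, in 1 of the 10 annotated ORFs with lower values and in 26 of the 104 in between, and in 23.5% of all 6020 coding-gene windows. Among the other genes the shares were 38.1% of those higher, 20.3% of those lower and 22.1% of those in between. Capitals mark AGGGG in the higher ORFs that hold it.
YHR033W (chrVIII:175177-175276, plus strand): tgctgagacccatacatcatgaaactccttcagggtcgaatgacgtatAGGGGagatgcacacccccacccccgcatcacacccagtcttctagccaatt
YJL144W (chrX:146144-146243, plus strand): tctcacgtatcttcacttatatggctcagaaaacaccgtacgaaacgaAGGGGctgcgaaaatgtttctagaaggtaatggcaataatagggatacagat
YJR096W (chrX:610995-611094, plus strand): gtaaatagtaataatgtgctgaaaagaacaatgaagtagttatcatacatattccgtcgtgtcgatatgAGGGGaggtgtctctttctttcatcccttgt
YHR138C (chrVIII:377800-377899, minus strand): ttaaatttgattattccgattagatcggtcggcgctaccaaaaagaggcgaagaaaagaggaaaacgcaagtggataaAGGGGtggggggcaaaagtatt

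None of these 4 stretches overlaps the coding sequence of another gene. The letters AAAATTT, the core of a motif found before ribosome biogenesis genes, were present in 5 of the 10 annotated ORFs with lower values, in 1 of the 10 with higher values and in 23 of the 104 in between. Over all 6020 windows the share was 24.2%. Among the other genes it was 23.8% of those lower, 20.2% of those higher and 29.8% of those in between. Capitals mark AAAATTT or its reverse complement in the lower ORFs that hold it. Where AAAATTTT occurs, both overlap.
YHR020W (chrVIII:143688-143787, plus strand): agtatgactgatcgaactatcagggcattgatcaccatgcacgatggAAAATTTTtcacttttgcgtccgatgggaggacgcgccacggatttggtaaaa
YJR011C (chrX:459665-459764, minus strand): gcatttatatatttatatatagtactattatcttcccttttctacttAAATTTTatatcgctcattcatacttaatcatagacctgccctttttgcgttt
YOR021C (chrXV:373716-373815, minus strand): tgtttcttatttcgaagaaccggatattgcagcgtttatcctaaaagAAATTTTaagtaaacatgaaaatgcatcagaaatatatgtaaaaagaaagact
YKR051W (chrXI:530643-530742, plus strand): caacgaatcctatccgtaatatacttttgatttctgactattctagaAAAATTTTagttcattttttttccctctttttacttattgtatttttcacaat
YNL010W (chrXIV:613434-613533, plus strand): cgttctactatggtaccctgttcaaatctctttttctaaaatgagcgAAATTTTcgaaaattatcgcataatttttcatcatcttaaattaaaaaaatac

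The stretch of YOR021C lies wholly within the coding sequence of its upstream neighbour, and the other 4 lie outside coding sequence. The remaining motifs were rarer. CACGTG, the E-box bound by Cbf1 and Pho4, was present before YHR033W and YML119W among the higher ORFs and before none of the lower ones, with 4.53% over all windows. TGACTC, the site of the amino acid starvation factor Gcn4, was present before 1 ORF in each of the higher and lower groups (8.44% over all windows), and so was GATGAG, the PAC core (18.4%). All these motifs are short, and their presence is a description of the letters only.

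Among the higher ORFs, those with a known link to stress and drying were represented by a pair of hydrophilins, small and very soluble proteins that protect cells during drying. YJL144W (ROQ1, chromosome X, 146359 to 146673, single exon) was 114 FPKM in wild type against 324 FPKM in dbp2Δ cells, 2.83-fold higher. Roq1 also redirects the ubiquitin ligase Ubr1 towards misfolded proteins under stress, and RefSeq notes its induction by osmotic stress, starvation and stationary phase. YNL190W, a hydrophilin of the cell wall on chromosome XIV (282395 to 283009), was 299.8 FPKM and 640.2 FPKM, 2.14-fold higher, and was already the most abundant of the 10 in wild type. YJL107C, whose induction through the osmotic stress kinase Hog1 is noted in RefSeq, had the largest ratio of all 127 ORFs. It was 17.9 FPKM in wild type, the lowest wild-type value of the group, and 92.4 FPKM in dbp2Δ cells, 5.15-fold higher (chromosome X, 218853 to 220016). Regulation by osmotic shock or high osmolarity is also noted for YML131W and YHR078W. Both were lower in dbp2Δ cells as deposited, with log2 ratios of -0.19 and -0.40. With the strains given equal totals over protein-coding genes, these ratios were 0.27 and 0.07.

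Reductases and other metabolic enzymes formed another part of the higher ORFs. YJR096W, an aldo-keto reductase that acts on xylose and arabinose (chromosome X, 611195 to 612043), was 49.1 FPKM in wild type against 128 FPKM in dbp2Δ cells, 2.61-fold higher. YPL088W, a putative aryl alcohol dehydrogenase (chromosome XVI, 381965 to 382993), was 66.4 FPKM and 166 FPKM, 2.49-fold higher. Both belong to the 6 ORFs whose notes name a reductase, an oxidoreductase or an alcohol dehydrogenase, a grouping made after the values were seen. The other 4 were within 2-fold: the aldehyde reductase YLL056C at 48.7 FPKM and 68.0 FPKM, the methionine sulfoxide reductase YKL069W at 264 FPKM and 239 FPKM, YML131W at 65.6 FPKM and 57.5 FPKM, and PBR1 (YNL181W) at 231 FPKM and 171 FPKM. The reductases thus stood on both sides of equality, 3 above and 3 below, but all 6 lay above 0 once the strains were given equal totals over protein-coding genes. YHR033W, the duplicate of the proline synthesis gene PRO1 (chromosome VIII, 175548 to 176819), was 96.7 FPKM in wild type against 434 FPKM in dbp2Δ cells, 4.49-fold higher and the highest ratio after YJL107C. PRO1 was not analysed here.

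The higher ORFs also included a protein seen at the vacuole, a relative of a vacuolar protease inhibitor and proteins without a described function. YHL008C, which may take part in chloride uptake and has been seen at the vacuole (chromosome VIII, 92627 to 94510), was 30.4 FPKM in wild type against 103 FPKM in dbp2Δ cells, 3.38-fold higher. YHR138C resembles the vacuolar protease inhibitor Pbi2 and lies on chromosome VIII (377355 to 377699). It was 128 FPKM and 275 FPKM, 2.15-fold higher. PBI2 itself stood on 2 rows, at 73.3 FPKM and 134 FPKM on the higher one, and at 5.96 FPKM and 4.06 FPKM on the lower one. YJL016W (TPH3), which has a pair of adjacent PH-like domains (chromosome X, 405588 to 407273), was 57.0 FPKM and 216 FPKM, 3.79-fold higher. YML119W, a potential substrate of the cell cycle kinase Cdc28 (chromosome XIII, 30611 to 31684), was 56.9 FPKM and 145 FPKM, 2.55-fold higher. Of the 10 higher ORFs, 8 have no standard symbol in RefSeq.

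**Figure D1:**
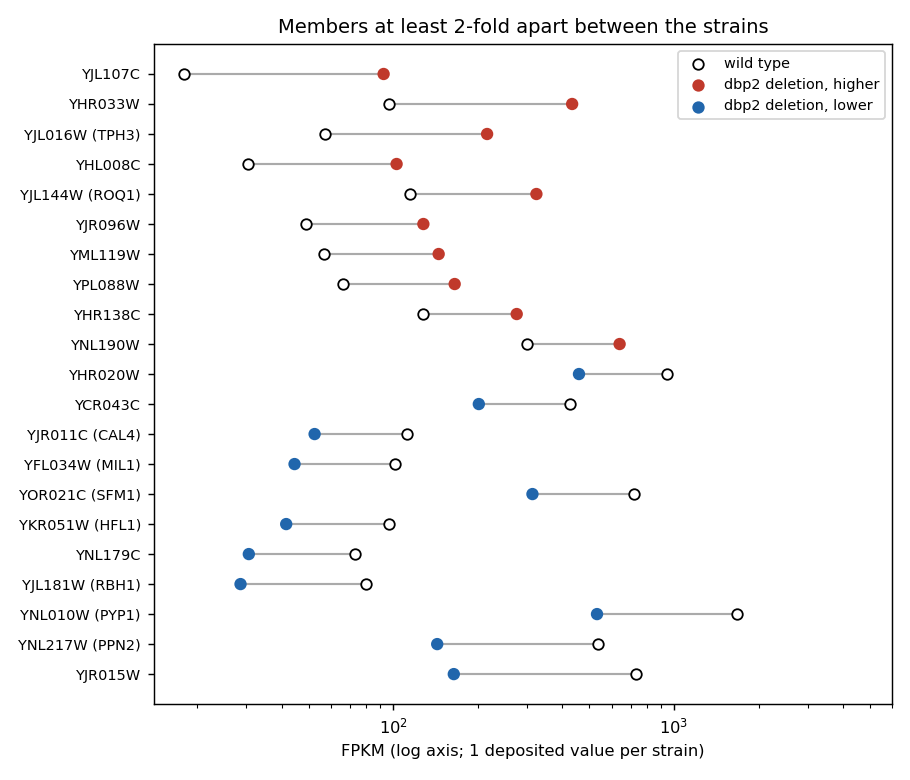
FPKM on a log axis for the 21 ORFs at least 2-fold apart, with open circles for wild type and filled circles for the dbp2 deletion (red where higher, blue where lower), 1 deposited value per strain and no error bars. The 10 higher ORFs run from YJL107C (5.15-fold) to YNL190W (2.14-fold), and the 11 lower ones from YHR020W (2.05-fold) to YJR015W (4.44-fold).

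The lower ORFs were led by YJR015W, which RefSeq describes as a predicted membrane transporter of the endoplasmic reticulum and a duplicate of SNG1. It was 729.7 FPKM in wild type against 164 FPKM in dbp2Δ cells, 4.44-fold lower (chromosome X, 462721 to 464253). Phosphatases followed. YNL217W (PPN2, chromosome XIV, 240331 to 241311), a vacuolar enzyme that cuts polyphosphate chains, was 537 FPKM and 143 FPKM, 3.75-fold lower. YNL010W (PYP1, chromosome XIV, 613635 to 614360), which dephosphorylates sugar alcohol phosphates, was 1674 FPKM and 532 FPKM, 3.15-fold lower, and was among the 6 most abundant of all 127 ORFs. Other phosphatases among the ORFs were within 2-fold. The protein phosphatase YNL108C was 168 FPKM in wild type against 175 FPKM in dbp2Δ cells, and the diphosphatase YJR142W was 160 FPKM and 135 FPKM. CTO1 (YCR015C), with a noted part in phosphate uptake, was also within 2-fold at 177 FPKM and 104 FPKM.

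Genes of translation and of RNA and protein modification were also among the lower ORFs. YHR020W encodes prolyl-tRNA synthetase, which charges transfer RNA with proline (chromosome VIII, 143996 to 146062). It was 942 FPKM in wild type against 459 FPKM in dbp2Δ cells, 2.05-fold lower. YOR021C (SFM1, chromosome XV, 372798 to 373439), which methylates the ribosomal protein Rps3, was 719 FPKM and 313 FPKM, 2.29-fold lower. YJR011C (CAL4, chromosome X, 458641 to 459426), an accessory component of the Ccr4-NOT complex of mRNA deadenylation, was 112 FPKM and 52.5 FPKM, 2.14-fold lower.

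Membrane traffic and the remaining lower ORFs had smaller levels in the main. YKR051W (HFL1, chromosome XI, 530946 to 532202), a vacuole membrane protein that binds the autophagy protein Atg8, was 96.6 FPKM in wild type against 41.6 FPKM in dbp2Δ cells. YFL034W (MIL1, chromosome VI, 65477 to 68698), a predicted lipase that binds a clathrin adaptor chain, was 101 FPKM and 44.5 FPKM. YCR043C, seen at the Golgi apparatus (chromosome III, 206261 to 206644), was 425 FPKM and 202 FPKM. All 3 were lower by a similar factor, from 2.11-fold for YCR043C to 2.27-fold for MIL1 and 2.32-fold for HFL1. YJL181W (RBH1, chromosome X, 85660 to 87495), whose expression follows the cell cycle, was 80.1 FPKM and 28.6 FPKM, 2.80-fold lower. YNL179C was 73.3 FPKM and 30.6 FPKM, 2.40-fold lower. Of the 11 lower ORFs, 7 carry a standard symbol in RefSeq and 4 do not.

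The counts depended on the scaling between strains. The submitters' scaling is not described in the sources used here. Giving the strains an equal total over protein-coding genes adds 0.47 to the log2 ratio before the pseudocount. On this scale 18 ORFs (14.2%) lay at least 2-fold higher, against 19.9% of all genes compared and 14.6% of other genes averaging 50 FPKM or more. In the other direction 4 ORFs (3.15%) passed, against 4.57% of all genes compared and 4.23% of those other genes. All 10 higher ORFs were among the 18. The 4 lower ORFs that remained were YJR015W, PPN2, PYP1 and RBH1, the last only just past the limit. Just under the limit as deposited stood YPL199C, which RefSeq links to the decay of mRNAs without a stop codon, at 129 FPKM and 257 FPKM.

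The ORFs as a whole had a median log2 ratio of -0.17, with quartiles of -0.56 and 0.28, and 50 ORFs lay above 0 and 77 below. The 1323 other genes that averaged 50 FPKM or more had a median of -0.18 and quartiles of -0.63 and 0.26. With equal protein-coding sums the medians turned positive, at 0.30 and 0.29. At least 2-fold higher were 6.73% of those other genes and at least 2-fold lower 12.2%. The ORFs ranged from -2.14 to 2.30, within the range of the other genes from -5.08 to 6.09. Median levels were 117 FPKM in wild type against 111 FPKM in dbp2Δ cells for the ORFs, and 172 FPKM and 151 FPKM for the other genes. The ORFs held 0.579% of all deposited FPKM in wild type and 1.46% in dbp2Δ cells, a comparison that moves with the highest rows of each list.

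**Figure D2:**
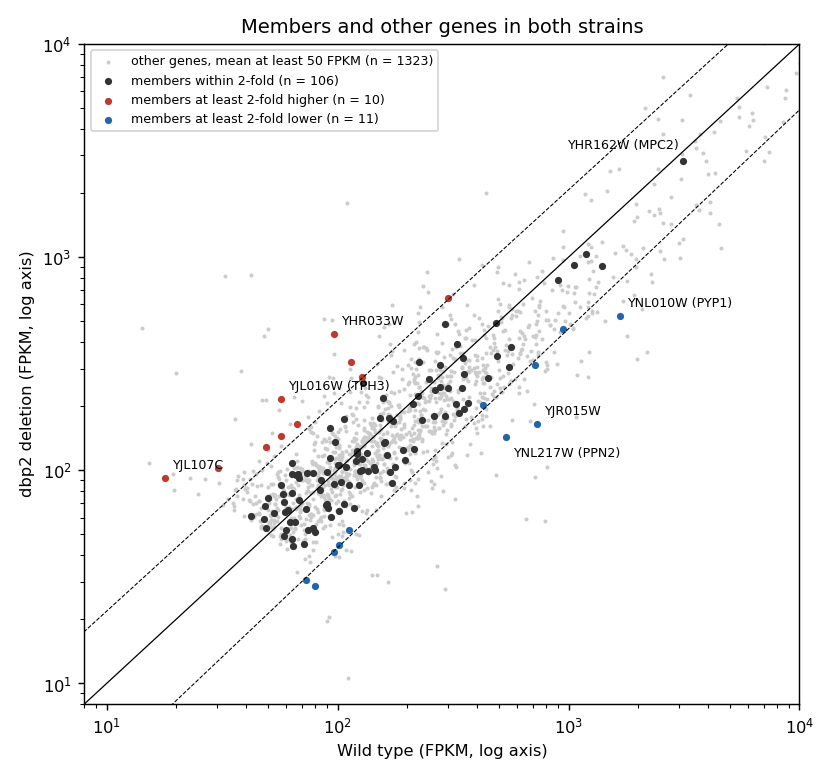
FPKM in wild type against the dbp2 deletion, both on log axes, for the 127 ORFs (dark, red and blue points) and 1323 other genes averaging 50 FPKM or more (grey, of which 30 lie outside the axes). The solid line marks equal values and the dashed lines the 2-fold limit with the pseudocount; 106 ORFs lie between the dashed lines.

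**Figure D3:**
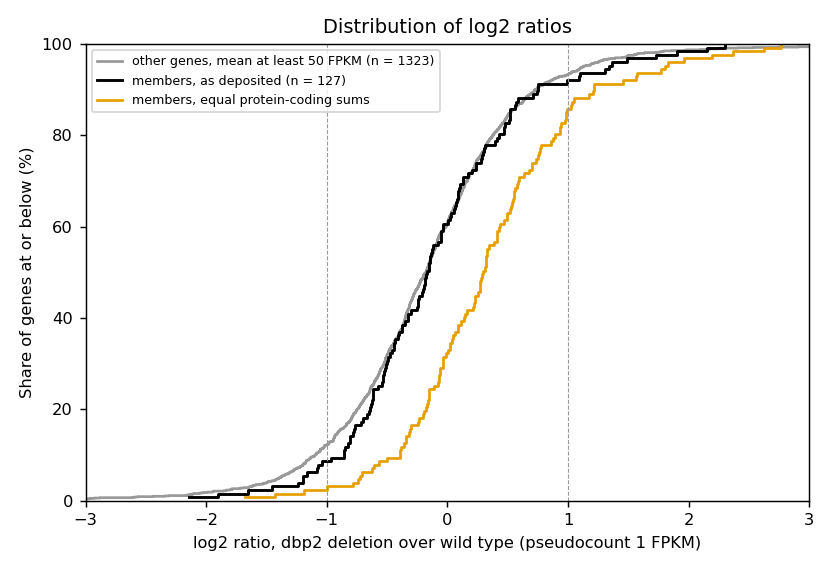
Cumulative share of genes (%) by log2 ratio of the dbp2 deletion over wild type, for other genes averaging 50 FPKM or more (grey), the 127 ORFs as deposited (black) and the same ORFs with equal protein-coding sums (orange); dashed lines mark the 2-fold limits. The median of the ORFs is -0.17 as deposited and 0.30 with equal sums.

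The 6 most abundant ORFs were all lower in dbp2Δ cells as deposited, 5 of them by less than 2-fold. MPC2, which imports pyruvate into mitochondria with Mpc1, was 3123 FPKM in wild type against 2811 FPKM in dbp2Δ cells. TMH11 (YJR085C), a mitochondrial protein, was 1398 FPKM and 909 FPKM, and YNL208W, which may interact with ribosomes, was 1192 FPKM and 1039 FPKM. These 3 are the most abundant of the 127 by their mean. CHP1 (YPL225W), a chaperone for newly made elongation factor eEF1A, was 1053 FPKM and 921 FPKM, and TOH1 (YJL171C), a cell wall protein, was 901 FPKM and 777 FPKM. With equal protein-coding sums MPC2, YNL208W, CHP1 and TOH1 had positive log2 ratios, of 0.26 to 0.32. Level and ratio were weakly related across the 127 ORFs, with a Spearman rho of -0.19, against -0.30 over the 1323 other genes. All points of both share the same 2 libraries. Of 40 ORFs with a mean of 200 FPKM or more, 4 passed the 2-fold limit upward and 6 downward, against 6.33% and 19.5% of the 569 other genes at that level. Of 35 ORFs from 100 to 200 FPKM, 3 passed upward and 0 downward, against 5.97% and 8.31% of 385 other genes. Of 52 ORFs from 50 to 100 FPKM, 3 passed upward and 5 downward, against 8.13% and 4.88% of 369 other genes.

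At the mean limit of 50 FPKM, the ORFs just inside were VPS501 (YKR078W) at 49.1 FPKM in wild type against 53.7 FPKM in dbp2Δ cells, YIL092W at 42.4 FPKM and 61.2 FPKM, and YNL179C, given above. Just outside stood YJR111C at 44.9 FPKM and 54.2 FPKM, YJR154W at 30.7 FPKM and 66.4 FPKM, and YKR045C at 36.5 FPKM and 60.6 FPKM.

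Annotation classes were formed from words in the RefSeq notes, and an ORF could belong to several. Of 22 ORFs of the mitochondria class, 0 were at least 2-fold apart in either direction as deposited, although 4 passed upward on the equal-sum scale, and the median log2 ratio was -0.12, while among 204 other genes of that class averaging 50 FPKM or more 23 were higher, 26 were lower and the median was -0.22. The largest ratios of the class were NNR1 (YNL200C), an epimerase that repairs damaged NADH, at 63.7 FPKM in wild type against 108 FPKM in dbp2Δ cells, and TCD1 (YHR003C), a transfer RNA modifying enzyme of the outer membrane, at 291 FPKM and 488 FPKM. At the other end stood YKR070W at 353 FPKM and 194 FPKM and MRX15 (YNR040W), a receptor for the mitochondrial ribosome, at 117 FPKM and 66.6 FPKM. NNR2 (YKL151C), which acts with Nnr1 in NADH repair and whose promoter has stress response elements according to RefSeq, was 106 FPKM and 175 FPKM. Both repair enzymes were thus higher by a similar factor, 1.69-fold and 1.64-fold.

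Of 20 ORFs of the ribosome and RNA class, 17 were lower and 3 at least 2-fold lower, with a median log2 ratio of -0.41, and 0 were at least 2-fold higher. The 272 other genes of this class had a median of -0.17, with 2.21% at least 2-fold higher and 8.09% lower. After equalising the protein-coding sums the median of the 20 was 0.06, 12 lay above 0 and 8 below, 0 passed the lower limit and 1 passed the upper limit, namely TCD1 at 1.21. The 3 past the lower limit as deposited were SFM1, MIL1 and YHR020W, of which MIL1 entered the class through a noted contact with the ribosomal stalk. Within this class, 7 ORFs have notes on the mitochondrial ribosome, and 6 of them were lower. RCI37 (YIL077C) was the exception, at 97.2 FPKM in wild type against 136 FPKM in dbp2Δ cells. MRP35 (YNL122C), a protein of its large subunit, was 124 FPKM and 84.9 FPKM, and MRX6 (YNL295W), which regulates mitochondrial DNA copy number, was 71.7 FPKM and 45.2 FPKM. MRX4 (YPL168W), MRX7 (YNL211C), MRX12 (YJR003C) and MRX15 had log2 ratios between -0.08 and -0.81. None of the 7 reached 2-fold, and with equal protein-coding sums 4 of the 7 were above 0. The 5 methyltransferases ranged from -1.20 for SFM1 to 0.29 for EFM6 (YNL024C), which modifies an elongation factor. The ribosomal RNA methyltransferases RCM1 (YNL022C) and BMT5 (YIL096C) lay at -0.53 and -0.18.

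The 31 ORFs with words for membranes and transport had members at both ends. At least 2-fold higher were 3 (YHL008C, ROQ1 and YHR138C), and at least 2-fold lower were 5 (YCR043C, MIL1, HFL1, PPN2 and YJR015W). ROQ1 entered through the membrane proteins that Ubr1 acts on, and YHR138C through the vacuoles of a double mutant. The median log2 ratio of the 31 ORFs was -0.05, and that of the 341 other genes of the class was -0.21. These counts were 9.68% and 16.1% of the ORFs in the class, against 8.50% and 13.2% of its other genes. The enzyme class held 44 ORFs whose notes have a word ending in -ase. It thus includes ORFs not described as enzymes themselves, such as ROQ1 and CHP1. Of the 44, 4 were at least 2-fold higher, ROQ1 among them, and 5 lower, with a median of -0.16. The 703 other genes of the class had a median of -0.20, and 6.26% of them were higher and 12.4% lower by that limit. Of 18 ORFs with stress words in their notes, 3 were at least 2-fold higher (ROQ1, YHR138C and YNL190W), 0 were at least 2-fold lower, and the median was -0.16, beside -0.16 for the 237 other genes of this class, of which 10.1% passed upward and 11.0% downward. The 36 ORFs that matched no class had 3 higher and 2 lower, against 7.23% and 6.63% of the 166 other genes without a class.

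Groups formed after the values were seen, by words in the notes, showed where the ORFs of 1 compartment or activity lay. The 13 ORFs with vacuole words in their notes were split, with 7 above 0 and 6 below and a median log2 ratio of 0.13. YPQ1 (YOL092W), a vacuolar transporter of basic amino acids, was 157 FPKM in wild type against 218 FPKM in dbp2Δ cells, between the extremes of YHL008C and PPN2. The 12 ORFs whose notes name the endoplasmic reticulum had a median of 0.04, with ROQ1 at the top and YJR015W at the bottom. ROQ1 is among them through the membrane proteins that Ubr1 acts on, and its note does not place Roq1 itself there. Of 6 ORFs whose notes name a peptidase or protease, 5 had negative log2 ratios as deposited and 3 after equalising the protein-coding sums. None reached 2-fold. ZNG1 (YNR029C), at -0.03 as deposited, is among the 6 but is itself a zinc transferase that activates a peptidase. YPF1 (YKL100C), a protease of the signal peptide peptidase type, was 93.1 FPKM and 157 FPKM, whereas SDD3 (YOL098C) was 368 FPKM and 207 FPKM. Of 6 ORFs of ubiquitin and the proteasome, ROQ1 alone was at least 2-fold apart. FUB1 (YCR076C) was 222 FPKM and 223 FPKM, and IPA1 (YJR141W), which acts in pre-mRNA 3′ processing, was 172 FPKM and 87.3 FPKM, just short of the limit.

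**Figure D4:**
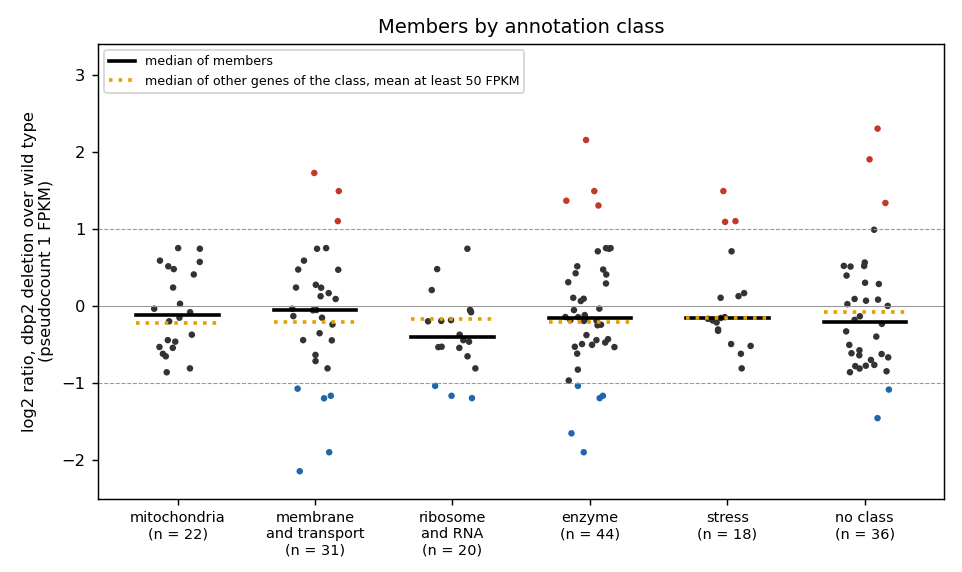
Log2 ratio of the dbp2 deletion over wild type (pseudocount 1 FPKM) for the annotated ORFs in each annotation class, 1 point per ORF, red or blue where at least 2-fold higher or lower; an ORF can appear in several classes and horizontal positions within a class are arbitrary. Black bars are medians of the ORFs and dotted orange bars medians of other genes of the class; the largest gap between the bars is in the ribosome and RNA class, at -0.41 and -0.17.

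A list of 10 ORFs known to respond to stress, drawn from general knowledge and with several since renamed, was followed separately. Of these, 9 were in the deposited lists and 3 were among the 127 ORFs, namely ROQ1, NNR1 and NNR2. All 3 had log2 ratios above 0, as did 50 of the 127 ORFs, and ROQ1 alone reached 2-fold. YNL195C was below the mean limit, at 11.4 FPKM in wild type against 22.4 FPKM in dbp2Δ cells. YHR087W, listed as RTC3, was 32.7 FPKM and 818 FPKM, and YNL274C, listed as GOR1, was 3.09-fold higher. YNL194C and YHL021C (AIM17) stood on 2 rows each that went opposite ways, and YNL134C on 2 rows that were both higher.

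A search of the RefSeq notes by a fixed wording found a named duplicate gene for 18 of the ORFs. The notes ascribe each to the ancestral whole-genome duplication, except that of YIL029C, ascribed to the duplication of a single locus. The notes of VPS501 and MPC2 also name a paralog, in other words, and these ORFs are not among the 18. The duplicates of 8 ORFs were compared, none of them that of YIL029C, of which 4 had log2 ratios of opposite sign as deposited (the TCD pair counts from both sides) and 1 (RBH1) with equal protein-coding sums. TCD1 and TCD2 (YKL027W), which both make a cyclic modification in transfer RNA, are each other's duplicate. TCD1 was given above, and TCD2 was 91.0 FPKM in wild type against 66.6 FPKM in dbp2Δ cells, so the pair had opposite directions as deposited. The log2 ratio was 0.74 for TCD1 and -0.44 for TCD2 as deposited, and 1.21 and 0.02 with equal protein-coding sums, where both were above 0. RBH2, the duplicate of RBH1, was 14.7 FPKM and 15.97 FPKM, while RBH1 was 2.80-fold lower. PTM1, the duplicate of YHL017W, was 279 FPKM and 188 FPKM, next to 293 FPKM and 179.8 FPKM for YHL017W, so both members of that pair were lower. YIR016W, a target of the meiotic regulator Ume6, was 225 FPKM and 323 FPKM, and its duplicate YOL036W was 39.2 FPKM and 54.9 FPKM, both higher. No ORF other than YIL059C had a stretch of at least 50 bases with at least 95% identity in another coding sequence, and the match of YIL059C was its own overlap with YIL060W.

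Position along the chromosome was examined next. The neighbouring coding genes of the 21 ORFs at least 2-fold apart were set beside them. Of 14 neighbours compared of the higher ORFs, 2 were at least 2-fold higher and 0 lower. Of 18 neighbours of the lower ORFs, 3 were at least 2-fold lower and 1 was at least 2-fold higher. Over all genes compared the shares were 8.86% higher and 10.9% lower. With so few neighbours, the counts describe these pairs only. Next to YHR138C, 104 bases away and on the opposite strand, lies ARO9, which encodes an aromatic aminotransferase and was 48.1 FPKM in wild type against 427 FPKM in dbp2Δ cells. NGL3, downstream of YML119W on the same strand, was 6.39 FPKM and 25.1 FPKM. MNN11, a mannosyltransferase gene upstream of RBH1 on the same strand, was 790.2 FPKM and 291 FPKM, and MRS4, a mitochondrial iron carrier gene that converges on HFL1 from 347 bases away, was 261 FPKM and 86.4 FPKM. ILV3, a gene of branched-chain amino acid synthesis that converges on YJR015W from 197 bases away, was 3552 FPKM and 1752 FPKM. The gene of opposite behaviour was MCO10, which converges on SFM1 and was 83.0 FPKM and 189.7 FPKM.

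Across all ORFs the ratio of a neighbour was at most weakly related to that of the ORF. Pearson's r was 0.10 over 47 divergent upstream neighbours, 0.22 over 44 upstream neighbours on the same strand, 0.18 over 58 convergent downstream neighbours and 0.00 over 44 downstream neighbours on the same strand, with every point resting on the same 2 libraries. Spearman's rho for these was 0.08, 0.20, 0.05 and -0.03. The libraries were strand-specific, but whether strand was used when reads were assigned to genes is not given in the sources used here. Without it, reads of convergent genes that run into each other cannot be told apart. In the annotation 5 ORFs overlap another gene: YIL059C by 277 bases with YIL060W, YPL247C by 24 bases with an antisense RNA, and YML096W, YJL107C and YPL260W by 6, 4 and 2 bases. YIL059C was 68.2 FPKM and 72.7 FPKM, values that are uncertain because YIL060W covers most of it on the opposite strand. YJL107C overlaps PRM10, which is downstream on the same strand and was 5.01 FPKM and 2.80 FPKM, so the higher value of YJL107C did not extend to it.

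**Figure D5:**
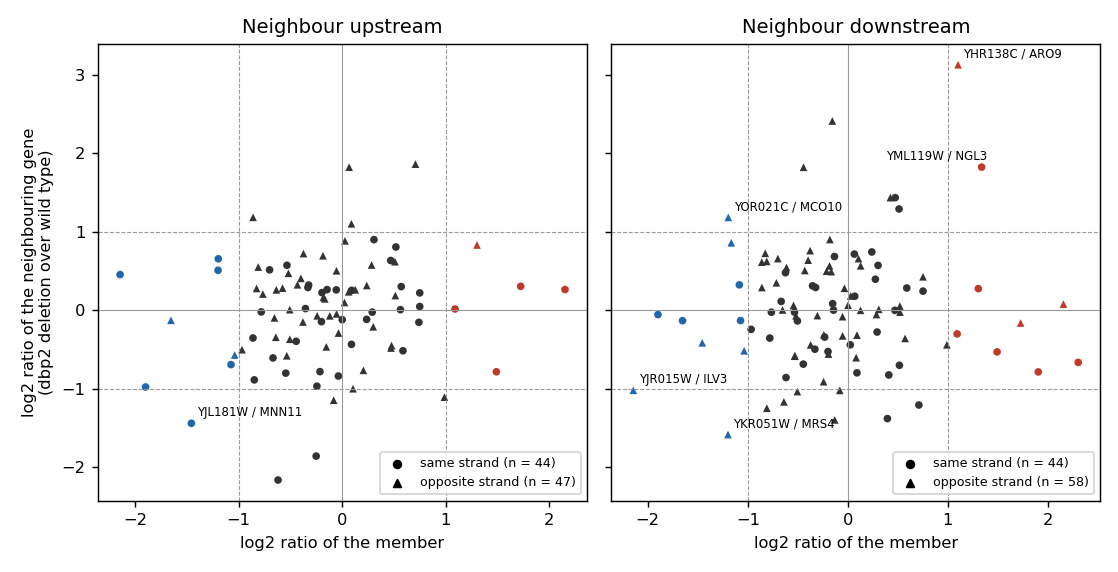
Log2 ratio (dbp2 deletion over wild type) of the upstream (left) and downstream (right) coding neighbour against that of the ORF, circles for neighbours on the same strand and triangles for the opposite strand, red or blue where the ORF was at least 2-fold higher or lower; dashed lines mark 2-fold. Named pairs are those with both genes at least 2-fold apart, led by YHR138C with ARO9.

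Gene structure was set beside the ratios as well. The 4 ORFs with an intron, all of them without a standard symbol, had log2 ratios between -0.81 and -0.62 and none reached 2-fold. YCL002C was 215 FPKM in wild type against 125 FPKM in dbp2Δ cells, and YNL050C was 196 FPKM and 111 FPKM. YCL012C was 447 FPKM and 272 FPKM, and YKR005C was 80.1 FPKM and 51.6 FPKM. All 4 were thus lower as deposited, with a median of -0.74, and their median with equal protein-coding sums was -0.28. The 81 other genes with more than 1 coding exon and an average of 50 FPKM or more had a median of -0.20, and the 50 of these that are not cytosolic ribosomal protein genes a median of -0.08. By coding length, the 21 ORFs under 600 bases had a median log2 ratio of 0.08, the 65 from 600 to under 1500 bases a median of -0.18 and the 38 of 1500 bases or more a median of -0.33. Across the 124 annotated ORFs Spearman's rho of the log2 ratio was -0.16 with coding length and 0.28 with the GC content of the coding sequence. Only 3 ORFs lie within 20 kb of a chromosome end, namely YER186C, YML131W and MIX23 (YBL107C), with log2 ratios between -0.19 and -0.04.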

How the data were processed

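The deposited files hold 1 FPKM value per row and strain. Per the submitters' processing notes, the authors used Cuffdiff 2.1.1 and build sacCer3. That the deposited values are FPKM was inferred from this and from the values. For the aligner, annotation, strand setting, scaling and treatment of the 2 labelled replicates, nothing is stated in the sources used. Per the labels' protocols, ribosomal RNA was removed before library preparation for the SOLiD platform.

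Names were matched to RefSeq assembly R64, the assembly to which sacCer3 refers. Rows naming several genes (7) and names on several rows were left out. Log2 ratios of deletion over wild type used a pseudocount of 1 FPKM, which understates differences of low genes; folds are plain ratios of the deposited FPKM. A single value per strain allows no test. Coding sequences were compared with BLAST 2.17.0 (at least 95% identity over 50 bases); other steps used Python 3.11.15, numpy 2.4.6, pandas 2.3.3, scipy 1.17.1 and matplotlib 3.10.9. The ratio and its 2-fold limit were run on simulated data with planted changes larger than the limit and little noise. That run checks the calculation only, and not calls near the limit or the noise of these data. Protein sequence features were not used here.

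The ORFs, classes and lists were chosen with earlier results of these data known. The ORFs named by rule were every ORF at least 2-fold apart, the 6 most abundant, the 4 largest ratios of each class and those at the mean limit; others, the subgroups and the printed stretches were chosen after their values were seen.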

Additional observations from a re-analysis of the deposited data

Results flagged for a closer look

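Names on several rows were outside the comparison, because how the rows differ is not stated. Of 20 systematic names on several rows with a summed mean of at least 50 FPKM, 2 passed the 2-fold limit upward in dbp2Δ cells and 6 downward. Among 110 other names on several rows at that level the shares were 13.6% and 18.2%. The 6 lower names were YOL106W, YOL159C, YJL045W, YJR012C, YHR045W and YKR023W, and the most abundant of them were YHR045W, with summed values of 7167 FPKM and 2825 FPKM, and YJL045W, with 4945 FPKM and 1521 FPKM. YCR025C had a summed log2 ratio of 2.23, with rows of 11.9 FPKM in wild type against 79.9 FPKM in dbp2Δ cells, and of 6.46 FPKM and 9.93 FPKM. YNL134C had a summed log2 ratio of 1.46, with rows of 65.1 FPKM and 216 FPKM, and of 21.5 FPKM and 23.0 FPKM. YCR025C and YNL134C were marked because a signal above wild type, which served as the control, stood in rows that the comparison did not use.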

How the results depend on the processing

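No paired analysis was possible because each strain has 1 value. The main counts were 10 ORFs at least 2-fold higher and 11 lower, with a median log2 ratio of -0.17. The shares over all genes compared were 8.86% and 10.9%. Without the mean limit, 43 and 35 of 386 ORFs passed, with a median log2 ratio of -0.052. At a mean of at least 100 FPKM 7 were higher and 6 lower among 75. With equal protein-coding sums the counts were 18 and 4 and the median 0.30, and with several rows of a name summed they were 12 and 17 among 147. Equal medians and pseudocounts of 0.1 and 10 FPKM gave 10 higher and 10 or 11 lower. Leaving out ORFs that overlap a gene or lack annotation, added after seeing the data, gave 9 and 10 among 119. Where the set of ORFs changed, no share over all genes at the same setting is given, so those counts describe the ORFs only. Of 32 named ORFs, 7 lost and 2 gained the 2-fold limit with equal sums, and 1 lost it with a pseudocount of 10 FPKM. Unknown depth and 1 value per strain limit every statement.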
